A study of Mus musculus with 12 samples.

Results

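The miR-130 and miR-301 family was described in mouse skin and skin tumours through its 4 main mature arms, miR-130a-3p, miR-130b-3p, miR-301a-3p and miR-301b-3p. They were chosen by name, because miR-130b is a known target of TAp63. Their rows are named mmu-mir-130a-3p, mmu-mir-130b-3p, mmu-mir-301a-3p and mmu-mir-301b-3p. All 4 were among the 1251 miRNA rows of the deposited small RNA sequencing table, and among the 544 rows that were tested because they exceeded the table's lowest value in at least 2 libraries. The mice were C57Bl6, and either homozygous for a TAp63 knockout (TAp63-/-) or wild type (WT). Cutaneous squamous cell carcinomas (SCC) came from animals aged over 35 weeks under chronic ultraviolet radiation (UVR) of 2.5 kJ/m2, given 3 times a week, from TAp63 knockout (n = 4) and WT mice (n = 2). The skin was dorsal, without treatment, and taken at 4 weeks of age from TAp63 knockout (n = 3) and WT mice (n = 3). The labels do not say whether the knockout is confined to a cell type, and tumours differ from skin in age and UVR exposure as well as in tissue. These cannot be told apart. The labels do not state that each library is a separate mouse, so p-values measure the spread between libraries, which may be partly technical.

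A miRNA is cut from a hairpin precursor, and the mature strand guides a silencing complex to messenger RNAs that pair with its seed, bases 2 to 8. miRNAs with the same seed are grouped as a family because they can recognise many of the same targets. TAp63, the p63 isoform that carries the full transactivation domain, was shown in earlier work on mice and human cells to bind and activate both Dicer1, the gene of the enzyme that cuts miRNA hairpins, and the miR-130b gene. miR-130a is known from blood-forming cells and from endothelium, where it represses the antiangiogenic homeobox genes Gax and HOXA5 in human cells. miR-301a lies within Ska2, a gene for a kinetochore protein, and is known in human tumours as an activator of NF-kB signalling through repression of NKRF.

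The mature sequences show what the members share. RefSeq sequences (GRCm38.p6) were found for 3 of the 4 members, and miR-301b-3p had no mature entry. They are printed 5′ to 3′ with the seed in capitals, to show the seed they share and where the rest differs.
miR-130a-3p: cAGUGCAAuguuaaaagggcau
miR-130b-3p: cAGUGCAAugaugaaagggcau
miR-301a-3p: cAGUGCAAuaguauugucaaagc
The seeds of the 3 were identical. miR-130a-3p and miR-130b-3p had the same base at 20 of 22 positions, while miR-301a-3p matched miR-130a-3p at 12 and miR-130b-3p at 11 of 22 positions counted from the 5′ end. Of the 1738 mature mouse sequences in the RefSeq set, 7 had this seed. The other 4, miR-130c, miR-721, miR-6341 and miR-6389, had rows in the deposited table and were at its floor in all 12 libraries.

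A second family has nearly the same start, shifted by a base. In miR-148a-3p, miR-148b-3p and miR-152-3p, bases 2 to 8 (in capitals) equal bases 1 to 7 of the miR-130 and miR-301 members, so the families differ in register and can be compared as neighbours in sequence.
miR-148a-3p: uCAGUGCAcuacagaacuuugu
miR-148b-3p: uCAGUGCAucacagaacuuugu
miR-152-3p: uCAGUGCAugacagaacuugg

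The members come from 3 places in the genome (mm10, which is GRCm38). The miR-130b hairpin (chromosome 16, 17124061 to 17124142) and the miR-301b hairpin (chromosome 16, 17124400 to 17124496) lie 257 bases apart on the minus strand, in an intron of the protein-coding gene 2610318N02Rik on the same strand. The miR-301a hairpin (chromosome 11, 87113004 to 87113089) is on the plus strand in an intron of Ska2. The miR-130a hairpin (chromosome 2, 84741115 to 84741178, minus strand) overlapped no annotated gene other than its own. No other miRNA hairpin lay within 10 kb of any of the 4.

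Levels are the authors' log2 values, and none is below a linear 10, called the floor here. The libraries have nearly equal sums, as after quantile normalization, so a level is relative to the other miRNAs of its library. Read counts are not kept and depth is unknown, so the error given is the spread between libraries. Libraries held 432 to 545 miRNAs above the floor in knockout SCC, 402 to 420 in WT SCC, 370 to 465 in knockout skin and 390 to 433 in WT skin. In these bulk samples, fewer cells of a type and less RNA per cell cannot be told apart.

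Family members differed widely in level. miR-301a-3p ranked between 55 and 89 among the miRNAs of a library, and miR-130a-3p between 71 and 121. miR-130b-3p ranked between 248 and 316, and miR-301b-3p between 291 and 491, although these 2 have neighbouring hairpins. In every library miR-130a-3p and miR-301a-3p stood at least 3.96 log2 units above miR-130b-3p. The order of the upper pair was not the same in all libraries, and neither was that of the lower pair.

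**Figure D1:**
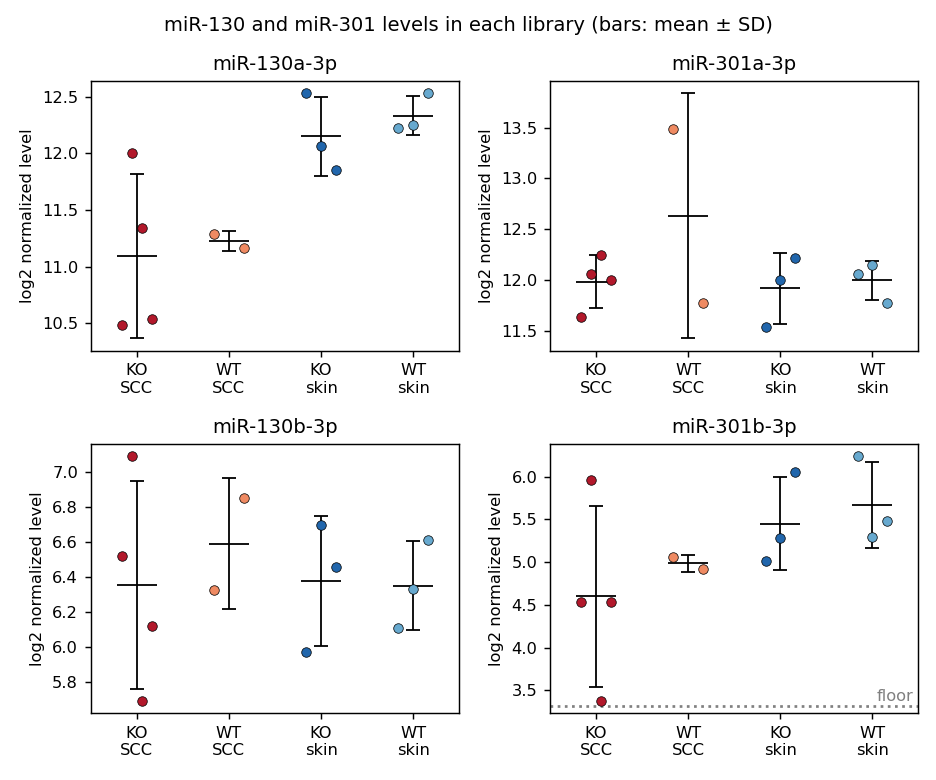
Log2 normalized level (vertical axis, a separate range in each panel) of the 4 members in knockout SCC (n = 4), WT SCC (n = 2), knockout skin (n = 3) and WT skin (n = 3). Points are libraries and bars are mean ± SD. For miR-130a-3p 5 of 6 tumours lie below all skin libraries, and knockout SCC replicate 2 lies within the skin range. A WT tumour stands alone at 13.48 for miR-301a-3p, and the genotypes overlap within each tissue for all 4 members.

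miR-130b-3p, the member linked to TAp63, was at nearly the same level in all 4 groups. Its log2 level was 6.52, 7.09, 5.69 and 6.12 in the knockout SCC libraries, and 6.33 and 6.86 in the WT SCC libraries. Skin gave 5.97, 6.70 and 6.46 in knockout mice and 6.11, 6.33 and 6.61 in WT mice. The 4 knockout tumours covered the widest range and held both the highest and the lowest value, and the genotypes overlapped in each tissue. Group means were 6.36 ± 0.60 in knockout SCC, 6.59 ± 0.37 in WT SCC, 6.38 ± 0.37 in knockout skin and 6.35 ± 0.25 in WT skin (SD).

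Loss of TAp63 was first compared within skin. miR-130b-3p differed by 0.03 ± 0.39 (log2, SE) between knockout and WT skin, with a 95% interval from -0.84 to 0.89, that is 0.559 to 1.85 times the WT level. The other members differed by -0.08 ± 0.39 for miR-301a-3p, -0.18 ± 0.38 for miR-130a-3p and -0.22 ± 0.59 for miR-301b-3p. None of the 4 was called by limma at an adjusted p under 0.05, where 0% of all tested miRNAs were called, and each adjusted p was 1. With library quality weights 22 miRNAs were called, none of them a member. At an unadjusted p under 0.05, limma listed 31 of the 544 miRNAs and none of the 4. The direction of the small miR-130b-3p difference turned when knockout skin replicate 2 (-0.14) or 3 (-0.01) or WT skin replicate 1 (-0.10) was left out, and with the 5 most abundant miRNAs removed (-0.02). Leaving out knockout skin replicate 1 turned the sign for miR-301a-3p (0.11), and leaving out WT skin replicate 1 that for miR-301b-3p (0.06).

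In tumours the estimates were all on the lower side in knockout mice and none was called. miR-130b-3p was -0.23 ± 0.42 between knockout and WT SCC, with a 95% interval from -1.15 to 0.68 (0.45 to 1.6 times the WT level). miR-301a-3p had the greatest difference, at -0.64 ± 0.41 (adjusted p = 0.663, limma). For miR-301a-3p the knockout SCC values were 11.64, 12.07, 12.25 and 12.002, against 13.48 and 11.78 in WT SCC. The estimate depends on WT SCC replicate 1: without it the difference was 0.21, and without WT SCC replicate 2 it was -1.50 (adjusted p = 0.0642). For miR-130a-3p the difference was -0.14 ± 0.40, and without knockout SCC replicate 1 (0.06) or 4 (0.05) the sign turned. The difference of miR-301b-3p was -0.39 ± 0.63, and 0.02 without knockout SCC replicate 3, and that of miR-130b-3p was 0.03 without WT SCC replicate 2. Among all tested miRNAs 0.184% were called, and 46 miRNAs but none of the 4 had an unadjusted p under 0.05. That share is 1 miRNA, miR-20b-5p, named after its values were seen. It was at the floor in every library but the 2 WT tumours, and was tested only because of them.

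Averaging the genotype difference over both tissues narrows the intervals. miR-130b-3p was then at -0.10 ± 0.29 (95% interval -0.73 to 0.53), which leaves room for a level in knockout tissue between 0.601 and 1.44 times that of WT tissue. miR-301a-3p was at -0.36 ± 0.28, miR-301b-3p at -0.31 ± 0.43 and miR-130a-3p at -0.16 ± 0.28. The medians were -0.23 over the 4 members and 0.04 over the 544 miRNAs. None was called, with 0% of all tested miRNAs called and adjusted p-values from 0.832 to 0.92 for the members (limma). At an unadjusted p under 0.05 the numbers were 35 of all miRNAs and 0 of the 4. The estimate of miR-130b-3p turned to 0.03 without WT SCC replicate 2, to 0.01 without knockout SCC replicate 3 and to 0.01 with library quality weights, and that of miR-301a-3p to 0.06 without WT SCC replicate 1.

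Other miRNAs linked to p63 were also uncalled between genotypes, as were nearly all tested miRNAs. That list held miR-34a-5p and miR-34c-5p, which respond to p53, the keratinocyte miRNAs miR-203-3p and miR-205-5p, and a pair picked by the study from these animals, miR-497-5p and miR-30c-2-3p. That pair is therefore no independent evidence. None of the 6 was called between knockout and WT mice in skin, in SCC or averaged over tissues (limma). The shares of all tested miRNAs called were 0% in skin, 0.184% in SCC and 0% averaged, so this count is near the background. Their median differences were 0.17 in skin, -0.32 in SCC and 0.12 averaged, against 0 in skin, 0.07 in SCC and 0.04 averaged over all tested miRNAs. In tumours against skin, averaged over genotypes, 1 of the 6 rose and 3 fell, where 20.4% of all tested miRNAs were called higher and 21.5% lower. Of these, miR-205-5p rose by 1.55 ± 0.19 and miR-497-5p fell by 0.74 ± 0.19, with adjusted p-values of 0.000106 and 0.00997 (limma). The other lower calls, of miR-203-3p and miR-30c-2-3p, ended in 7 and 8 of 12 fits that each left out 1 library, and that of miR-497-5p ended without WT SCC replicate 1 (adjusted p = 0.0573).

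Tumours and skin differed for miR-130a-3p. Its log2 level was 10.48, 12.002, 11.35 and 10.54 in knockout SCC and 11.29 and 11.17 in WT SCC, against 12.53, 12.07 and 11.85 in knockout skin and 12.22, 12.25 and 12.53 in WT skin. 5 of 6 tumours lay below all skin libraries, and knockout SCC replicate 2 lay within the skin range. The share of all tested miRNAs with this pattern was not counted, but 11.6% had all 6 tumours below all skin libraries. Averaged over genotypes, miR-130a-3p fell by 1.08 ± 0.28 on the log2 scale in SCC, or 2.11-fold (95% interval -1.69 to -0.47, adjusted p = 0.00945, limma). It was the single member called of 4, where 41.9% of all tested miRNAs were called, 21.5% lower and 20.4% higher. The 1 lower call among 4 members is near the background of lower calls. The call held without each library in turn, at -1.23 to -0.98 (adjusted p 0.000973 to 0.0324).

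The decrease of miR-130a-3p was of like size in the 2 genotypes. In TAp63 knockout mice it fell by 1.06 ± 0.36 (2.08-fold, adjusted p = 0.0403, limma, with 34.2% of all tested miRNAs called, 18.2% lower and 16% higher). In WT mice the change was -1.10 ± 0.43 (adjusted p = 0.102), where 18.2% of all tested miRNAs were called, 9.38% lower and 8.82% higher. Both WT tumours lay below all WT skin libraries, as they also did for miR-301b-3p, which was not called. The share of all tested miRNAs with that pattern was not counted. The difference between these tumour effects was 0.04 ± 0.55 (95% interval -1.17 to 1.26, adjusted p = 0.983). The call in knockout mice is weak: leaving out knockout SCC replicate 1 (-0.85, adjusted p = 0.0883) or 4 (-0.87, 0.0846), any knockout skin library (-1.21 to -0.87, 0.0531 to 0.15) or any WT skin library (-1.06, 0.0525 to 0.0577) ended it. Median-ratio scaling (-0.96, adjusted p = 0.0556) and a fit of the knockout groups alone (-1.06, 0.0957) ended it too. The WT call was made when the WT groups were fitted alone (adjusted p = 0.0372) and without knockout SCC replicate 2 (0.0319).

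The remaining members were not called between tumour and skin. miR-301a-3p had 0.35 ± 0.28 averaged over genotypes (adjusted p = 0.352, limma). Its skin values were 11.54, 12.002 and 12.22 in knockout mice and 12.07, 12.15 and 11.78 in WT mice, and 4 of the 6 tumours lay inside that range. WT SCC replicate 1 decides this estimate. With that library left out it was -0.08, and with WT SCC replicate 2 left out it was 0.78 (adjusted p = 0.0156). In WT mice alone the change was 0.63 ± 0.43, which became -0.22 and 1.48 (adjusted p = 0.0166) without these libraries. In knockout mice it was 0.07 ± 0.36.

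miR-130b-3p changed by 0.11 ± 0.29 in tumours averaged over genotypes (95% interval -0.52 to 0.74, adjusted p = 0.769, limma). It was at 0.24 ± 0.44 in WT and -0.02 ± 0.37 in knockout mice. These values lie near 0 and their sign turned when knockout SCC replicate 2 (-0.01) or WT SCC replicate 2 (-0.02) was left out of the averaged estimate.

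miR-301b-3p, the partner of miR-130b in the chromosome 16 pair, was lower in most tumours but was not called. Its values were 4.54, 5.96, 3.37 and 4.54 in knockout SCC and 5.06 and 4.92 in WT SCC. Skin libraries gave 5.01, 5.28 and 6.06 in knockout mice and 6.24, 5.30 and 5.48 in WT mice. Here 4 of 6 tumours lay below all skin libraries, a pattern whose share over all tested miRNAs was not counted. The lowest, knockout SCC replicate 3, was close to the floor of 3.32, which limits how low a value can be. The averaged change was -0.77 ± 0.43 (adjusted p = 0.186, limma), -0.68 ± 0.66 in WT and -0.85 ± 0.55 in knockout mice. Without knockout SCC replicate 2 the averaged change was -0.99 (adjusted p = 0.0487).

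**Figure D2:**
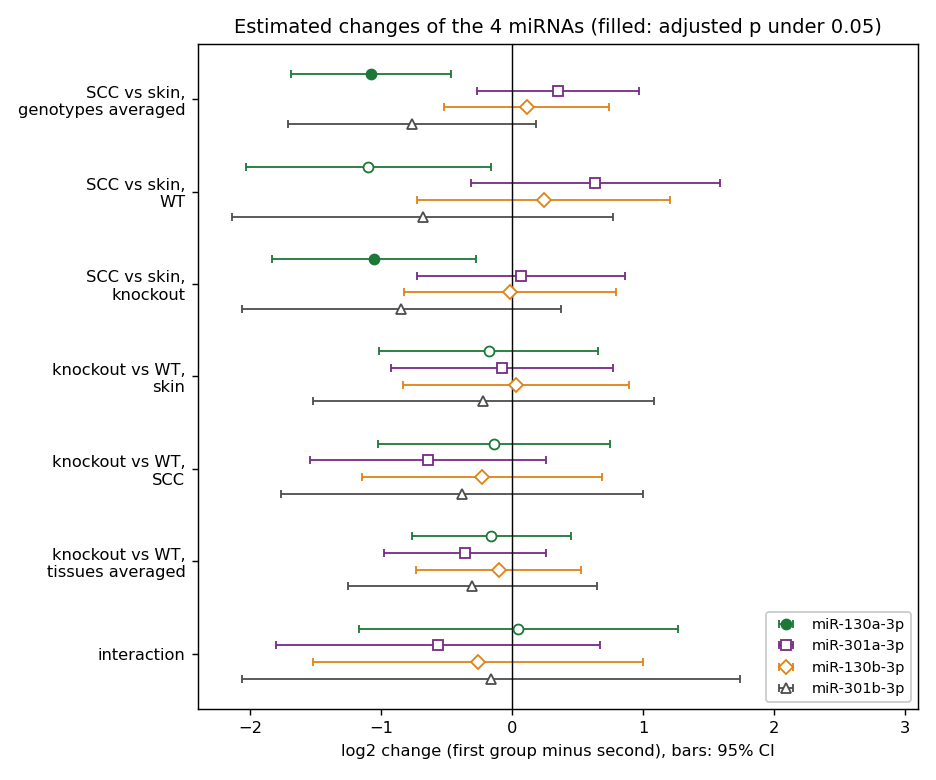
Estimated log2 change of each member (horizontal axis, first group minus second) in 7 comparisons of the 4 groups, with 95% intervals as bars. Filled symbols mark an adjusted p under 0.05 and are 2 values of miR-130a-3p, -1.08 for SCC against skin averaged over genotypes and -1.06 in knockout mice. Every interval of knockout against WT includes 0.

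The interaction tests whether the tumour effect differs with TAp63 status. It was -0.26 ± 0.57 for miR-130b-3p, -0.56 ± 0.56 for miR-301a-3p and -0.16 ± 0.86 for miR-301b-3p, and none of the 4 was called (adjusted p 0.849 to 0.983, limma; 0% of all tested miRNAs called). At an unadjusted p under 0.05 it listed 41 of all tested miRNAs and 0 of the members. The interval of miR-301b-3p ran from -2.06 to 1.73, so a large difference between genotypes would not have been detected. Without WT SCC replicate 1 the miR-301a-3p interaction was 0.29, and without WT SCC replicate 2 it was -1.42.

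Ratios of 2 members within a library were then compared between tissues, with an exact permutation of the tissue labels within each genotype (350 arrangements, smallest p 0.00286, two-sided, adjusted over 6 pairs). These tests were chosen after the values had been seen. miR-130a-3p over miR-130b-3p was 4.70 ± 0.60 on the log2 scale in SCC and 5.88 ± 0.45 in skin (SD, n = 6 each). The tumour effect on this ratio, averaged over genotypes, was -1.19 (exact permutation p = 0.00857, adjusted p = 0.0257). miR-130a-3p over miR-301a-3p was -1.06 ± 0.73 in SCC and 0.28 ± 0.50 in skin, and the averaged tumour effect was -1.43 (exact permutation p = 0.00571, adjusted p = 0.0257). Both ratios share miR-130a-3p, whose level fell by 1.08 in SCC, so their tests are not independent of that fall or of each other.

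miR-301a-3p stood above miR-130a-3p in 6 of 6 tumours, and in 1 of 6 skin libraries. miR-130b-3p over its cluster partner miR-301b-3p was 1.70 ± 0.46 in SCC and 0.80 ± 0.57 in skin, and the averaged tumour effect was 0.88 (exact permutation p = 0.0229, adjusted p = 0.0457). The other 3 pairs had adjusted p-values from 0.0643 to 0.651.

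Leaving out 1 library reduces the number of arrangements and ended several of these calls. For miR-130a-3p over miR-130b-3p the adjusted p was 0.0571 to 0.0933 without either WT SCC library, knockout skin replicate 1, or WT skin replicate 1 or 2. For miR-130a-3p over miR-301a-3p it was 0.0571 to 0.08 without the same libraries. The tumour effects on these ratios ran from -1.35 to -0.99 and from -1.82 to -1.03. For miR-130b-3p over miR-301b-3p the call ended without 9 of the 12 libraries (0.0571 to 0.171), namely knockout SCC replicate 1, 3 or 4, either WT SCC library, knockout skin replicate 1 or 3, and WT skin replicate 1 or 2. The tumour effect on miR-301a-3p over miR-301b-3p, 1.12 with all libraries, was called without knockout SCC replicate 2 (1.33, exact permutation, adjusted p = 0.02).

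**Figure D3:**
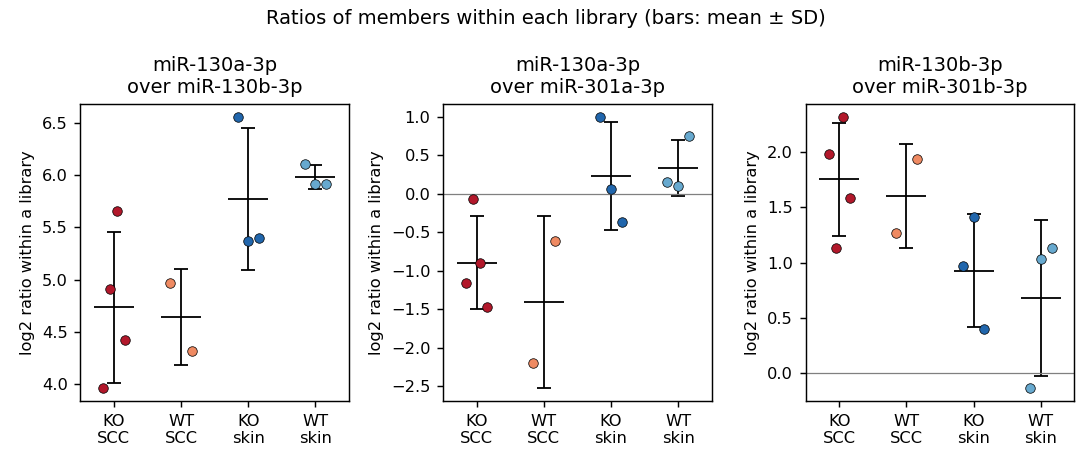
Log2 ratio of 2 members within each library (vertical axis) in knockout SCC (n = 4), WT SCC (n = 2), knockout skin (n = 3) and WT skin (n = 3). Points are libraries and bars are mean ± SD. The ratio of miR-130a-3p to miR-301a-3p is below 0 in 6 of 6 tumours, and the ratio of miR-130b-3p to miR-301b-3p is higher in tumours, at 1.13 to 2.32 against -0.14 to 1.42 in skin.

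On the linear scale the family's sum is set by miR-130a-3p and miR-301a-3p. The 4 members added up to 4728 to 8586 normalized units in knockout SCC, to 14075 and 5965 in WT SCC, to 8530 to 8974 in knockout skin and to 9197 to 9570 in WT skin. Of the 6 tumours, 4 lay below all skin libraries, 1 lay within their range and 1, WT SCC replicate 1, lay above them. miR-130a-3p made up 26.2% to 47.8% of this sum in knockout SCC and 17.8% to 38.6% in WT SCC, against 42.9% to 65.9% in knockout skin and 51.0% to 61.8% in WT skin. miR-130b-3p gave at most 1.94% of it in any library and miR-301b-3p at most 0.824%.

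The other arms of the 4 hairpins were barely detected. miR-130b-5p was above the floor in 4 of 4 knockout SCC, 1 of 2 WT SCC, 2 of 3 knockout skin and 1 of 3 WT skin libraries, at log2 levels of at most 4.55. Its change in SCC was 0.38 ± 0.28 averaged over genotypes (adjusted p = 0.319, limma), at 0.44 in knockout and 0.31 in WT mice. miR-301a-5p was above the floor in 2 knockout SCC libraries, miR-130a-5p in 1, and miR-301b-5p in none of the 12. The 2 tested 5p arms were called in none of the 7 comparisons, where 0% to 41.9% of all tested miRNAs were called. miR-301a-5p was tested only because of its 2 knockout SCC libraries, at log2 levels of at most 3.42. Its other groups were constant at the floor, so comparisons among them could show no difference.

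In the family with the shifted seed, miR-152-3p, known as a repressor of the DNA methyltransferase DNMT1 in human cells, also fell in tumours. It was 9.18 ± 0.22 in knockout SCC and 9.76 ± 0.13 in WT SCC, against 10.51 ± 0.26 in knockout skin and 10.64 ± 0.48 in WT skin (SD). All 6 tumours lay below the 6 skin libraries, a pattern that 11.6% of tested miRNAs showed. Its averaged change was -1.11 ± 0.21 (adjusted p = 0.00147, limma). miR-148a-3p (0.20 ± 0.42) and miR-148b-3p (0.45 ± 0.22) were not called, so 1 of 3 fell and none rose, where 21.5% of all tested miRNAs were called lower. None of the 3 was called between knockout and WT mice in skin, in SCC or averaged over tissues. Of all tested miRNAs, 0%, 0.184% and 0% were called in these comparisons, so that count is near the background.

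**Figure D4:**
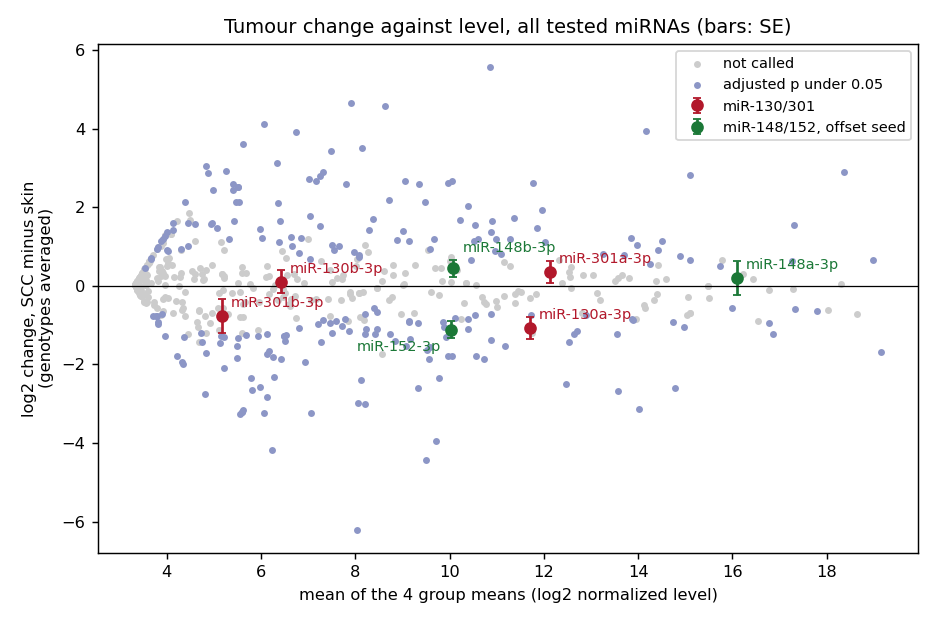
Log2 change of SCC against skin averaged over genotypes (vertical axis) against the mean of the 4 group means (horizontal axis, log2 normalized level) for the 544 tested miRNAs. The miR-130 and miR-301 members and the miR-148 and miR-152 members are named, with SE bars. miR-130a-3p (-1.08) and miR-152-3p (-1.11) lie close together in change, among many other called miRNAs.

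The miRNAs whose profiles over the 12 libraries were most like each member were found by the root mean square difference of log2 levels after each miRNA's own mean was removed, among 311 other miRNAs above the floor in all libraries. For miR-130a-3p these were miR-185-5p (0.36), miR-181a-5p (0.41) and miR-26a-5p (0.43), against a median of 0.89 over the candidates. Each was also called lower in SCC averaged over genotypes, at -1.23 ± 0.24, -0.94 ± 0.21 and -0.65 ± 0.17 (limma), which a choice by likeness favours. In that comparison 21.5% of all tested miRNAs were called lower. For miR-130b-3p they were miR-362-3p (0.26), miR-652-3p (0.29) and miR-142-5p (0.34), with a median of 0.77. miR-301a-3p was nearest to miR-351-5p (0.26), miR-421-3p (0.36) and miR-450a-5p (0.38), with a median of 0.83. miR-301b-3p was nearest to miR-181a-1-3p (0.41), miR-342-3p (0.48) and miR-29c-3p (0.49), with a median of 0.95. Of these only miR-181a-1-3p was called lower in SCC averaged over genotypes (-0.93 ± 0.25, adjusted p = 0.0109, limma). None of those nearest to miR-130b-3p or miR-301a-3p was called there.

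Markers of other cell types also differed between SCC and skin, averaged over genotypes, and their part in the decrease of miR-130a-3p was not tested. In that comparison 21.5% of all tested miRNAs were called lower and 20.4% higher, and the lists are short. Of 5 striated muscle miRNAs 4 were lower, with a summed linear level of 4750 to 16069 in knockout SCC and 5914 to 31462 in WT SCC, against 66537 to 90052 in knockout skin and 73106 to 79738 in WT skin. miR-499-5p of that list was at the floor in all skin libraries and went the other way. It was tested only because of tumour libraries, so its changes are set against a constant floor and are no independent evidence. Its averaged change was 1.20 ± 0.55 (adjusted p = 0.11, limma). In knockout mice miR-499-5p was called higher (1.99 ± 0.71, adjusted p = 0.04998, limma), where 16% of all tested miRNAs were called higher. Both melanocyte miRNAs were lower, with sums of 88.4 to 193 in knockout SCC and 349 to 1703 in WT SCC, against 2326 to 6496 in knockout skin and 4628 to 6160 in WT skin.

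The counts that follow stand beside the same shares over all tested miRNAs, 21.5% called lower and 20.4% called higher. Of 4 fibroblast miRNAs 2 were lower, with sums of 38531 to 67567 in knockout SCC and 44303 to 54924 in WT SCC, against 50483 to 68197 in knockout skin and 46212 to 66463 in WT skin. The lower ones were miR-199a-5p (-1.14 ± 0.27) and miR-199b-5p (-1.55 ± 0.23), while miR-199a-3p (-0.01 ± 0.20) and miR-214-3p (-0.41 ± 0.29) were not called. A linear sum follows the most abundant miRNAs of its list, so it need not show the change of the others. Of the 2 endothelial miRNAs, miR-126-5p was higher, with sums of 59939 to 92530 in knockout SCC and 66055 to 81383 in WT SCC, against 47443 to 53132 in knockout skin and 53335 to 62967 in WT skin. Of 4 leukocyte miRNAs 2 were higher (sums of 15962 to 61587 in knockout SCC and 31443 to 42374 in WT SCC, against 19642 to 25233 in knockout skin and 18746 to 25786 in WT skin). The red cell list had 2 of 3 higher (sums of 16981 to 96939 in knockout SCC and 25109 to 59667 in WT SCC, against 34962 to 74782 in knockout skin and 36995 to 55068 in WT skin). The remaining marker of that list, miR-486-5p, went the other way and was not called (-0.69 ± 0.40, adjusted p = 0.193, limma). Keratinocyte miRNAs had 1 of 7 higher and 1 lower, no more than those shares. They summed to 317849 to 634617 in knockout SCC and 450962 to 511027 in WT SCC, against 329740 to 403915 in knockout skin and 335646 to 456709 in WT skin. Neither smooth muscle miRNA was called averaged over genotypes (138755 to 368712 in knockout SCC and 192390 to 218230 in WT SCC, against 369733 to 625321 in knockout skin and 156507 to 305563 in WT skin). In knockout mice miR-143-3p was called lower (-1.18 ± 0.40, adjusted p = 0.0416, limma), where 18.2% of all tested miRNAs were called lower. Its change in WT mice was -0.03 ± 0.48, and miR-145a-5p was called in neither genotype. Apart from miR-499-5p, no marker of these lists was at the floor in every library of a group.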

How the data were processed

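Small RNA of 12 libraries was measured by sequencing. The authors deposited log2 values, 1 column per library, matched here to sample titles. Per the submitters' processing notes, mm10 was the genome build. No aligner, counting tool or miRBase release was found in the labels or file. The deposited columns behave as quantile normalized (linear sums 6065014 to 6065621). Of 1251 rows, 647 were at the floor throughout and 60 above it in 1 library. The other 544 were fitted with limma 3.58.1 (R 4.3.3), with 4 group means, trended and robust variances, and Benjamini-Hochberg adjustment over all 544 in each contrast. The fit was tested on simulated data. Hairpin positions came from RefSeq GRCm38.p6 and overlapping genes from GENCODE M21. Named miRNAs are the 4 members, their other arms, the same-seed and shifted-seed families, the p63-linked list, the markers and the 3 miRNAs most like each member. The members and lists were chosen with earlier results of these data known. Replicate numbers follow accession order and pair no samples. Alternatives changed the filter, pseudocount, scaling, variance model, weights or libraries.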

Additional observations from a re-analysis of the deposited data

How the results depend on the processing

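Depth is unknown, and with 2 WT tumours the intervals of the genotype comparisons are wide. The count models foreseen for read counts were not run, because the values are not counts. No paired analysis was possible because the labels give no replicate numbers and nothing pairs the samples. Median-ratio scaling and leaving out the 5 most abundant miRNAs moved the median change of all miRNAs in SCC, averaged over genotypes, to 0.16 and 0.13, against 0.04. Among the member values under all alternatives, 549 kept direction and side of the threshold, 40 turned sign, 5 became called and 10 lost their call. The cause was not tested. Fitting the compared groups alone gave 62 calls for WT tumours against skin (99 with all groups) and 0 for knockout against WT SCC (1), where a filter of 6 libraries gave 0 and no trend or robust step gave 2. Library quality weights gave 22 calls for knockout against WT skin (0). For miR-130a-3p, the tumour effect was -1.10 in WT (now called) and -1.06 in knockout mice (call lost) with those groups alone, and -0.96 in knockout mice with median-ratio scaling (call lost). Sign changes were 0.072 (median-ratio) and 0.044 (5 most abundant left out) for miR-130b-3p and -0.018 (weights) for miR-301a-3p in knockout tumours against skin, -0.019 (5 left out) for miR-130b-3p between genotypes in skin, 0.0091 (weights) averaged over tissues, and -0.011 (median-ratio) for the miR-130a-3p interaction.

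Leaving out each library in turn gave 165 to 232 calls for SCC against skin averaged, 30 to 116 in WT mice and 129 to 196 in knockout mice. It gave 0 to 2 for knockout against WT in skin, 0 to 10 in SCC, 0 to 9 averaged and 0 to 10 for the interaction. For WT mice, omitting WT SCC replicate 1 gave the lowest count, and omitting WT skin replicate 1 or 2 also lowered it by over 1.5 times. The highest counts for genotype in SCC, genotype averaged and interaction came without WT SCC replicate 2. Averaged SCC against skin ran from -1.23 to -0.98 for miR-130a-3p, -0.023 to 0.24 for miR-130b-3p, -0.075 to 0.78 for miR-301a-3p and -0.99 to -0.56 for miR-301b-3p. In WT mice it ran from -1.16 to -1.002 for miR-130a-3p, -0.025 to 0.50 for miR-130b-3p and -0.22 to 1.48 for miR-301a-3p, and in knockout mice from -1.36 to -0.85, -0.27 to 0.20 and -0.12 to 0.22 for the same members. Knockout against WT skin ran from -0.14 to 0.23 for miR-130b-3p, -0.23 to 0.11 for miR-301a-3p and -0.53 to 0.062 for miR-301b-3p. Knockout against WT SCC ran from -0.44 to 0.065 for miR-130a-3p, -0.50 to 0.030 for miR-130b-3p, -1.50 to 0.21 for miR-301a-3p and -0.84 to 0.022 for miR-301b-3p. Averaged over tissues it ran from -0.24 to 0.028 for miR-130b-3p and -0.79 to 0.063 for miR-301a-3p. The interaction ran from -0.26 to 0.25 for miR-130a-3p, -0.53 to 0.0042 for miR-130b-3p, -1.42 to 0.29 for miR-301a-3p and -0.62 to 0.25 for miR-301b-3p. The tumour effect on the ratio of miR-130b-3p to miR-301a-3p, -0.24 with all libraries, ran from -0.80 to 0.32, turning sign without WT SCC replicate 1.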
